A study of Homo sapiens with 16 samples.

Results

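The genes described here are the sensors of the unfolded protein response and a set of genes for degradation of misfolded proteins of the endoplasmic reticulum (ER). They are 10 genes: ERN1, EIF2AK3, ATF6, XBP1, HERPUD1, SEL1L, SYVN1, EDEM1, DERL1 and DERL2. They were found as the array probe sets annotated with exactly 1 of these symbols, and of several for a gene the brightest on average over the 16 arrays was used. This gave values for 9 of the 10, out of 19775 genes measured, and 24 probe sets in all. SYVN1 has no value here, because the probe set that names it also names another gene.

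RNA was measured on 16 Affymetrix U133 Plus 2.0 arrays, 1 per sample, in 4 groups of 4 biological replicates lettered A to D. The groups were MDA-MB-231 cells with 50 mM 2-deoxy-glucose (2DG), MDA-MB-231 cells with water as vehicle, MCF10A cells with 50 mM 2DG, and MCF10A cells with water as vehicle. 2DG is a glucose analogue that inhibits glucose metabolism, which the series set out to relate to gene expression. MCF10A is an immortalized mammary epithelial line that forms no tumours, and MDA-MB-231 comes from a breast cancer. All cells were plated sparsely in medium with 17.5 mM glucose and collected 24 h after 2DG or water was added, so each group is 1 line at 1 dose and 1 time. The medium of MDA-MB-231 held fetal bovine serum, and that of MCF10A horse serum with hydrocortisone, cholera toxin, insulin and epidermal growth factor. Line and medium cannot be told apart.

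The ER folds proteins that are secreted or sit in membranes. When unfolded proteins build up there, 3 sensors in its membrane signal to the nucleus. ERN1 encodes IRE1, an enzyme that cuts the XBP1 transcript so that it is spliced into the code for an active transcription factor. EIF2AK3 encodes PERK, a kinase that slows protein synthesis through eIF2α and raises translation of the transcription factor ATF4. ATF6 is itself a membrane-bound transcription factor that is released by proteases in the Golgi. Proteins that fail to fold are sent to ER-associated degradation: EDEM1 recognises and trims their sugar chains, SEL1L holds the ubiquitin ligase SYVN1 in place, HERPUD1 helps to assemble that complex, and DERL1 and DERL2 help to pass the protein back to the cytosol for the proteasome. Splicing of XBP1, phosphorylation of the kinases and cleavage of ATF6 were not measured.

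Values are log2 probe set summaries, so that 1 unit is a doubling, and they are relative to the other RNA on the same array. A lower amount of RNA per cell in a group cannot be told apart from an unchanged one. Changes are differences of log2 group means with the standard error (SE) of the fit, and a call needs an adjusted p under 0.05 (limma, two-sided, Benjamini-Hochberg over the 19775 genes). Levels of different genes come from different probes and are not compared with each other.

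Array medians lay between 6.17 and 6.22. All 5 measured markers of basal mammary epithelium were lower in MDA-MB-231 on vehicle. CDH1, which encodes E-cadherin, averaged 4.62 in MDA-MB-231 on vehicle and 13.06 in MCF10A on vehicle. Of 8 markers listed for MDA-MB-231, 5 were higher there on vehicle and 2 were lower, and SPARC went against the list at 5.55 in MDA-MB-231 and 10.92 in MCF10A. The log2 ratio of 3' to 5' actin control probe sets, a sign of RNA integrity, was 1.03 ± 0.0714 in MDA-MB-231 with 2DG and 0.598 ± 0.331 on vehicle (SD, n = 4), where replicate B stood at 1.09. In MCF10A it was 0.55 ± 0.0678 with 2DG and 0.392 ± 0.067 on vehicle. With this ratio as a covariate the change of ERN1 in MDA-MB-231 was 2.34, and without vehicle replicate B it was 2.38, against 2.36 in the fit as reported. The change of HERPUD1 was 2.24 and 2.26 under these settings, against 2.24 as reported. Vehicle arrays A, C and D of MDA-MB-231 had ratios of 0.38, 0.45 and 0.47, and its 2DG arrays 0.97 to 1.13. The covariate therefore cannot fully separate RNA integrity from 2DG in this line.

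Stretches of 3 promoters are shown. Those of HERPUD1 and XBP1 hold short sequences that transcription factors of this response are known to bind. That of SEL1L holds only the core CCACG of such sequences, which 33.3% of promoters hold. The stretches come from RefSeq, assembly GRCh38.p14, and are written 5' to 3' on the gene's own strand, upstream of the annotated start of the gene. The capitals mark in HERPUD1 the C/EBP-ATF element TTGCATCA and then ER stress element II, which is ATTGG and CCACG with 1 base between them. In XBP1 they mark the ER stress element, CCAAT and CCACG with 9 bases between them, and in SEL1L the core CCACG alone, which lies on the opposite strand there. Further cores, 160 to 156 bases upstream in HERPUD1 and 128 to 124 in XBP1, are left in lower case. Only exact matches were searched for, so near matches are not marked. The stretches run from 190 to 91 bases upstream for HERPUD1 (chr16:56931952-56932051, plus strand), from 130 to 21 for XBP1 (chr22:28800590-28800699, minus strand) and from 220 to 130 for SEL1L (chr14:81533983-81534073, minus strand).
HERPUD1: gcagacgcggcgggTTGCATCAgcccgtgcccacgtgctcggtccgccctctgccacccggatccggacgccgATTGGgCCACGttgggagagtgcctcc
XBP1: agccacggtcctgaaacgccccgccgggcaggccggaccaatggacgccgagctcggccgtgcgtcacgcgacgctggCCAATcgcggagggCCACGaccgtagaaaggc
SEL1L: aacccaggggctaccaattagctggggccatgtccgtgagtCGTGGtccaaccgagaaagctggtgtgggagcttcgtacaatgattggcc

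The 250 bases upstream of the start were searched on both strands for 9 of the 10 genes, SYVN1 among them and DERL1 not. The ER stress element was in XBP1, 52 to 34 bases upstream, and in 0.0806% of the 27305 promoters of the table. ER stress element II was in HERPUD1, 117 to 107 bases upstream, and in 0.0513% of promoters. HERPUD1 also held the C/EBP-ATF element, 176 to 169 bases upstream, which 0.82% of promoters hold. Both ER stress elements contain the core CCACG, which was in 5 of the 9 genes (XBP1, HERPUD1, SEL1L, SYVN1 and EDEM1) and in 33.3% of promoters. The core of the unfolded protein response element, TGACGTGG, and the cyclic AMP response element, TGACGTCA, share their first 6 bases. Neither was in these windows for any of the 9, and 0.667% and 1.77% of promoters hold them. A match is a match of letters, and binding was not measured.

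In MDA-MB-231 cells all 9 measured genes were higher with 2DG than on vehicle, from 0.26 for DERL2 to 2.36 for ERN1. For comparison, 25.5% of all genes were called higher in this line. In MCF10A cells 8 of the 9 were higher with 2DG, from 0.14 for EDEM1 to 2.72 for HERPUD1, and ATF6 was not called, where 29.0% of all genes were called higher. The rise was at least 1 log2 unit for 4 genes in MDA-MB-231 (ERN1, XBP1, HERPUD1 and SEL1L; 3.05% of all genes) and for 5 in MCF10A (the same 4 and EIF2AK3; 5.39% of all genes). The median change of the 9 was 0.845 in MDA-MB-231 and 1.26 in MCF10A, beside 0.028 and 0.022 over all genes. All 9 genes in MDA-MB-231 and 8 in MCF10A had every 2DG array above every vehicle array, as had 22.9% and 27.4% of all genes. Both counts rest on the brightest probe set of each gene. That choice used the 2DG arrays as well as the vehicle arrays, so it can favour probe sets that rise with 2DG. On vehicle ATF6 226941_at, which fell with 2DG, was brighter than the main probe set in both lines. In MDA-MB-231 on vehicle so was DERL1 222543_at, which was called in neither line (11.305 against 10.89). In MCF10A on vehicle the main DERL1 probe set was brighter (11.80 against 11.63). With the mean of all probe sets of a gene, 7 were higher and 2 lower in MDA-MB-231 (ATF6 and DERL2), and 8 higher and 1 lower in MCF10A (ATF6). Without probe sets shared between transcripts, 6 of 7 were higher in MDA-MB-231 and 5 of 7 in MCF10A. Adding the actin ratio to the fit, which in MDA-MB-231 goes largely with 2DG, left 9 higher in MDA-MB-231 and 8 in MCF10A.

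**Figure D1:**
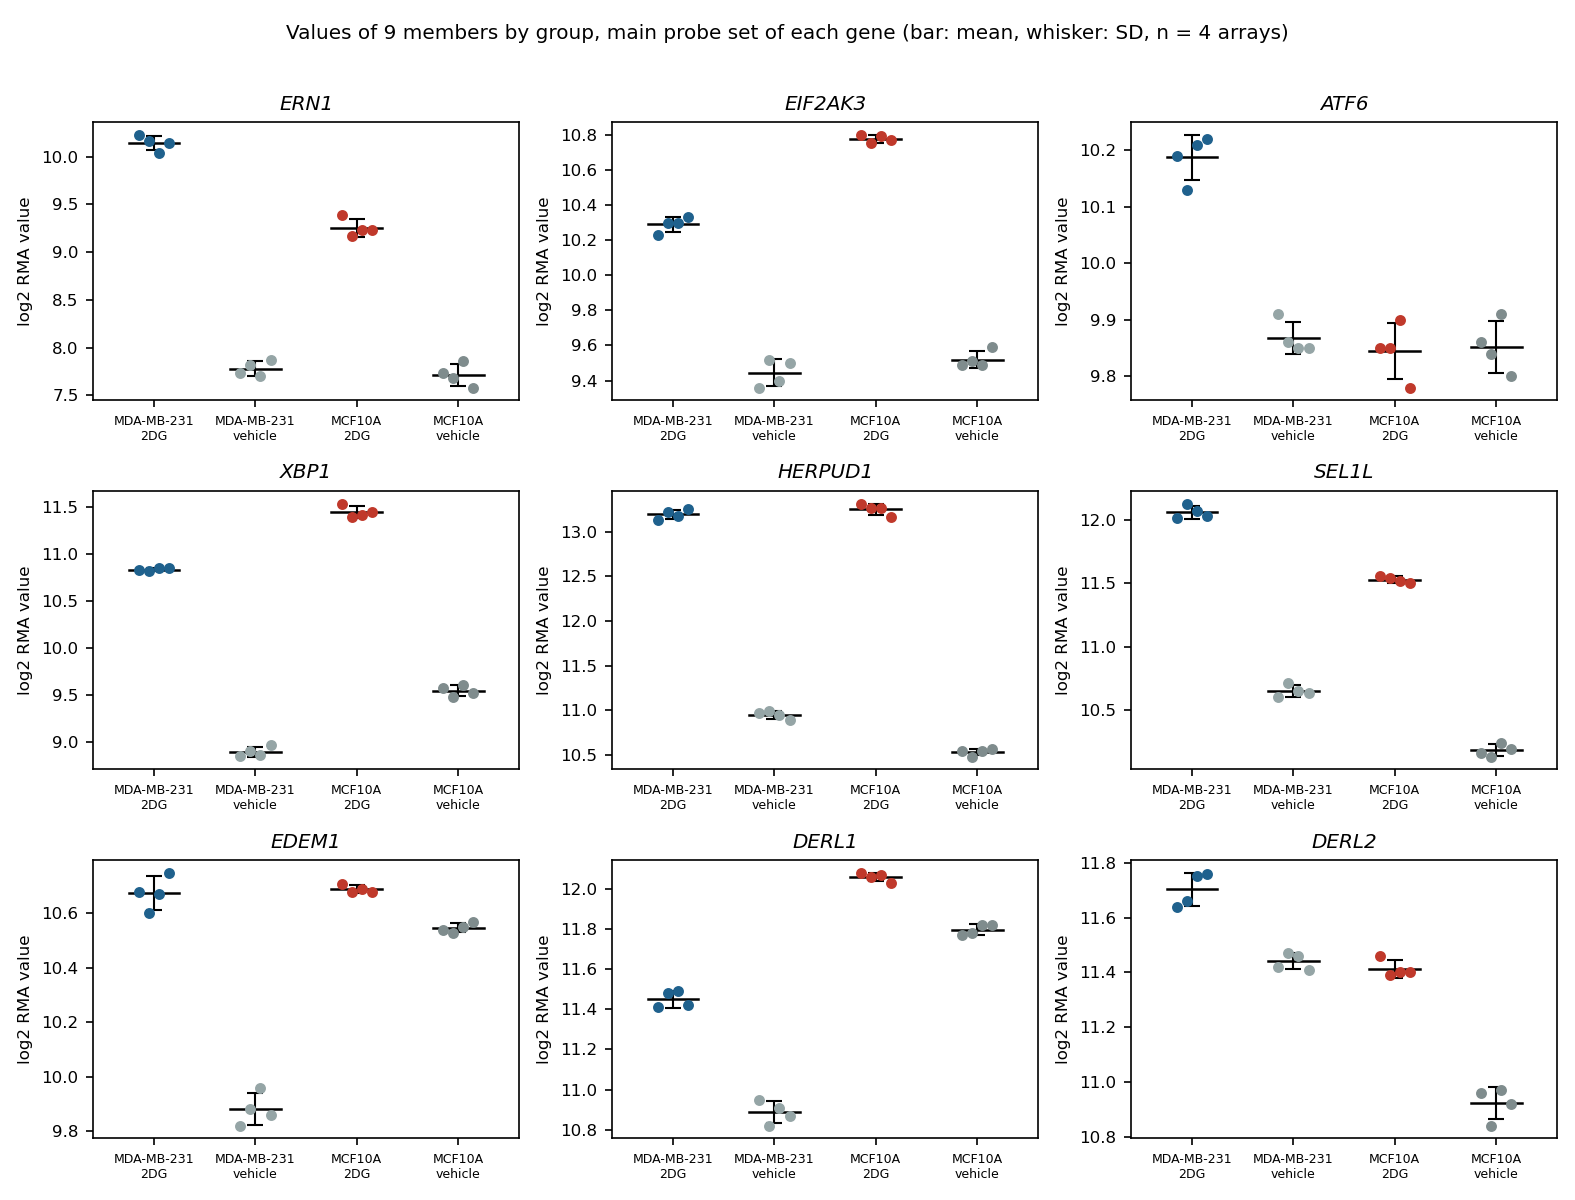
Log2 value of each of the 9 measured genes on each of the 16 arrays, 1 panel per gene with its own vertical axis in log2 units; points are arrays, bars are group means, and 2DG stands left of vehicle within each line. Within each line the 2DG arrays stand above the vehicle arrays in every panel except ATF6 in MCF10A, where both groups lie between 9.78 and 9.91.

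Of the sensors, ERN1 had the largest change in MDA-MB-231. ERN1 (probe set 227755_at) read 10.23, 10.16, 10.04 and 10.14 in MDA-MB-231 with 2DG, against 7.73, 7.82, 7.70 and 7.87 on vehicle. In MCF10A it read 9.39, 9.17, 9.23 and 9.23 with 2DG, against 7.73, 7.68, 7.86 and 7.58 on vehicle. The vehicle arrays of the lines overlap, and the 2DG arrays stand apart from them and from each other. The change was 2.36 ± 0.0641 (SE; 5.14-fold; adjusted p = 3.13e-14) in MDA-MB-231, where it ranked 41 of 19775 from the largest rise, and 1.54 ± 0.0641 (2.91-fold; adjusted p = 2.42e-12) in MCF10A. The response was larger in MDA-MB-231 by 0.82 ± 0.0906 (adjusted p = 1.05e-06). Of its dimmer probe sets, 207061_at rose by 0.27 in MDA-MB-231 (adjusted p = 0.00521) and was not called in MCF10A (-0.10). The other, 235745_at, was called lower in both lines, at -0.15 in MDA-MB-231 and -0.66 in MCF10A. With the mean of all its probe sets the change of ERN1 was 0.83 in MDA-MB-231 and 0.26 in MCF10A, both called higher.

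EIF2AK3, the gene of PERK, showed the opposite order of the lines. It read 10.23, 10.30, 10.30 and 10.33 in MDA-MB-231 with 2DG, against 9.36, 9.52, 9.40 and 9.50 on vehicle. The MCF10A arrays read 10.80, 10.75, 10.79 and 10.77 with 2DG, against 9.49, 9.51, 9.49 and 9.59 on vehicle. All 8 2DG arrays lie above all 8 vehicle arrays, and the MCF10A 2DG arrays lie highest. The rise was 0.845 ± 0.0413 (1.8-fold; adjusted p = 2.84e-11) in MDA-MB-231 and 1.26 ± 0.0413 (2.39-fold; adjusted p = 1.29e-13) in MCF10A. The difference of the responses, MDA-MB-231 minus MCF10A, was -0.41 (adjusted p = 1.68e-05). A second probe set with a mean of 3.69, 241463_at, was called in neither line.

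On the main probe sets ATF6 had the smallest change among the sensors, and its probe sets disagreed. Its main probe set, 203952_at, read 10.19, 10.13, 10.21 and 10.22 in MDA-MB-231 with 2DG, against 9.91, 9.86, 9.85 and 9.85 on vehicle. It read, in MCF10A, 9.85, 9.85, 9.90 and 9.78 with 2DG, against 9.86, 9.84, 9.91 and 9.80 on vehicle. Only the MDA-MB-231 2DG arrays stand apart. The change was 0.32 ± 0.0368 (1.25-fold; adjusted p = 1.15e-06) in MDA-MB-231. In MCF10A it was -0.0075, with a 95% confidence interval from -0.086 to 0.071 (adjusted p = 0.888). The responses differed by 0.33 (adjusted p = 5.61e-05), and by 0.045 with the mean of its 4 probe sets (adjusted p = 0.508).

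A second ATF6 probe set, 226941_at, had a mean of 9.89 over the 16 arrays against 9.94 for the main one. On vehicle it was the brighter of these, at 10.085 against 9.87 in MDA-MB-231 and 10.44 against 9.85 in MCF10A. It read 9.23, 9.30, 9.23 and 9.21 in MDA-MB-231 with 2DG, against 10.05, 10.15, 10.09 and 10.05 on vehicle. MCF10A arrays read 9.83, 9.79, 9.83 and 9.79 with 2DG, against 10.46, 10.43, 10.47 and 10.40 on vehicle. It fell in both lines, by 0.84 in MDA-MB-231 (adjusted p = 1.00e-11) and by 0.63 in MCF10A (adjusted p = 3.09e-10). The dimmer probe set 231927_at fell by 0.605 in MDA-MB-231 and by 0.59 in MCF10A, and 217550_at was called in neither line. The direction of ATF6 in MDA-MB-231 thus depends on the probe set, and which parts of the transcript these probe sets read was not analysed here.

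XBP1, the transcription factor gene downstream of IRE1, rose in both lines, with no called difference between them. It read 10.83, 10.82, 10.85 and 10.85 in MDA-MB-231 with 2DG, against 8.85, 8.91, 8.87 and 8.97 on vehicle. XBP1 in MCF10A read 11.54, 11.40, 11.42 and 11.45 with 2DG, against 9.58, 9.48, 9.61 and 9.53 on vehicle. The 4 groups do not overlap, and MDA-MB-231 lies below MCF10A under both conditions. The rise was 1.94 ± 0.0408 (3.83-fold; adjusted p = 2.70e-15) in MDA-MB-231 and 1.90 ± 0.0408 (3.74-fold; adjusted p = 7.46e-16) in MCF10A. The difference of the responses was 0.035, with a 95% confidence interval from -0.088 to 0.158 (adjusted p = 0.682). These values come from probe set 200670_at and do not separate spliced from unspliced XBP1. The dim second probe set, 242021_at, was called in neither line (0.16 in MDA-MB-231 and 0.062 in MCF10A). Between the lines it was called the other way, higher in MDA-MB-231 by 0.235 on vehicle and by 0.33 with 2DG.

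Among the genes of ER-associated degradation, HERPUD1 rose most in both lines. HERPUD1, whose promoter holds ER stress element II and the C/EBP-ATF element shown above, read 13.13, 13.22, 13.17 and 13.25 in MDA-MB-231 with 2DG, against 10.97, 10.99, 10.95 and 10.89 on vehicle. HERPUD1 in MCF10A read 13.31, 13.26, 13.27 and 13.16 with 2DG, against 10.54, 10.48, 10.54 and 10.57 on vehicle. The 2DG arrays of the lines overlap near 13.2, whereas on vehicle MDA-MB-231 stands above MCF10A. The rise was 2.24 ± 0.0409 (4.73-fold; adjusted p = 6.56e-16) in MDA-MB-231 and 2.72 ± 0.0409 (6.58-fold; adjusted p = 1.15e-17) in MCF10A. It was smaller in MDA-MB-231, by a difference of -0.475 (adjusted p = 3.17e-06). A dim second probe set, 1569380_a_at, rose by 0.81 in MDA-MB-231 and by 0.975 in MCF10A. The difference of the responses on that probe set, -0.17, was not called (adjusted p = 0.409).

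SEL1L, the scaffold of the SYVN1 ligase, read 12.02, 12.13, 12.07 and 12.03 in MDA-MB-231 with 2DG, against 10.60, 10.71, 10.65 and 10.63 on vehicle. In MCF10A it read 11.56, 11.54, 11.52 and 11.50 with 2DG, against 10.16, 10.13, 10.24 and 10.19 on vehicle. No groups overlap, and MDA-MB-231 lies above MCF10A under both conditions. SEL1L rose by 1.415 ± 0.0375 (2.67-fold; adjusted p = 2.36e-14) in MDA-MB-231 and by 1.35 ± 0.0375 (2.55-fold; adjusted p = 1.63e-14) in MCF10A. The difference of 0.065 was not called, with a 95% confidence interval from -0.048 to 0.178 (adjusted p = 0.368). Both 202062_s_at and 202064_s_at, 2 of its 3 other probe sets, rose as well, by 1.08 and 1.44 in MDA-MB-231 and by 1.27 and 1.31 in MCF10A, and 202063_s_at was called in neither line. Between the lines the dim 202063_s_at was called lower in MDA-MB-231, at -0.27 on vehicle and -0.26 with 2DG. Called higher there were 202062_s_at on vehicle (0.40) and 202064_s_at with 2DG (0.17).

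EDEM1, a lectin-like protein that takes misfolded glycoproteins out of the folding cycle, read 10.68, 10.60, 10.67 and 10.75 in MDA-MB-231 with 2DG, against 9.82, 9.88, 9.96 and 9.86 on vehicle. In MCF10A it read 10.71, 10.68, 10.69 and 10.68 with 2DG, against 10.54, 10.53, 10.55 and 10.57 on vehicle. MDA-MB-231 on vehicle is the low group, and the 2DG arrays of the lines overlap. The rise was 0.795 ± 0.0378 (1.74-fold; adjusted p = 2.03e-11) in MDA-MB-231 and 0.14 ± 0.0378 (1.1-fold; adjusted p = 0.00403) in MCF10A. The responses differed by 0.65 (adjusted p = 3.20e-08), the second largest difference of the 9 after ERN1. EDEM1 has 1 probe set, 203279_at.

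DERL1 and DERL2 are related membrane proteins of the retrotranslocation step, and they differed in which line rose more. DERL1 lay between 11.41 and 11.49 in MDA-MB-231 with 2DG, against 10.82 to 10.95 on vehicle, and between 12.03 and 12.08 in MCF10A with 2DG, against 11.77 to 11.82 on vehicle. It rose by 0.56 ± 0.0353 (1.48-fold; adjusted p = 6.66e-10) in MDA-MB-231 and by 0.26 ± 0.0353 (1.2-fold; adjusted p = 6.29e-06) in MCF10A, a difference of 0.30 (adjusted p = 9.07e-05). Its main probe set can also match other transcripts by its design suffix, and the unshared probe set 222543_at, with nearly the same mean, gave 0.098 in MDA-MB-231 (adjusted p = 0.0881) and 0.055 in MCF10A (adjusted p = 0.343). The rise of DERL1 therefore holds for the main probe set only in MDA-MB-231, and in MCF10A also for the dim 225488_at (0.26, adjusted p = 0.00615). The difference between the lines was 0.042 for the unshared probe set (adjusted p = 0.657).

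DERL2 read 11.64, 11.66, 11.75 and 11.76 in MDA-MB-231 with 2DG, against 11.42, 11.47, 11.46 and 11.41 on vehicle. In MCF10A it read 11.46, 11.39, 11.40 and 11.40 with 2DG, against 10.96, 10.84, 10.97 and 10.92 on vehicle. MCF10A on vehicle is the low group. The rise was 0.26 ± 0.0396 (1.2-fold; adjusted p = 2.51e-05) in MDA-MB-231 and 0.49 ± 0.0396 (1.4-fold; adjusted p = 1.24e-08) in MCF10A, a difference of -0.23 (adjusted p = 0.0029). A second, dimmer probe set, 226719_at, went the other way in MDA-MB-231, where it read 7.05, 7.05, 7.31 and 7.33 with 2DG, against 8.69, 8.77, 8.68 and 8.56 on vehicle. It fell there by 1.49 (adjusted p = 7.28e-12) and was not called in MCF10A (0.10, adjusted p = 0.235).

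**Figure D2:**
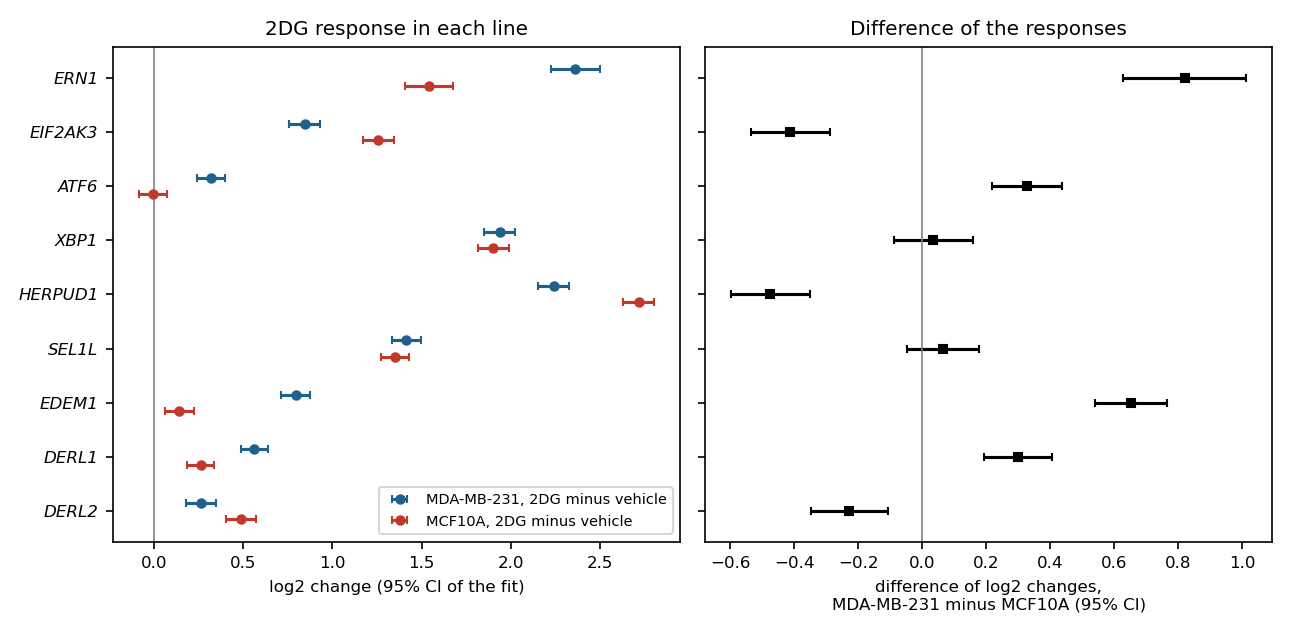
The left panel shows the log2 change with 2DG against vehicle for the 9 measured genes in MDA-MB-231 and in MCF10A, and the right panel the difference of these changes, MDA-MB-231 minus MCF10A; bars are 95% confidence intervals of the fit (4 arrays per group). In the right panel the intervals of XBP1 and SEL1L include 0, ERN1, EDEM1, ATF6 and DERL1 lie above 0, and HERPUD1, EIF2AK3 and DERL2 below. All values are those of the main probe sets.

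Set side by side, the responses of 7 of the 9 genes differed between the lines on their main probe sets. ERN1, EDEM1, ATF6 and DERL1 responded more in MDA-MB-231 and HERPUD1, EIF2AK3 and DERL2 more in MCF10A. On the 15 other probe sets 11 differences were not called. Those of DERL1 222543_at (0.042) and HERPUD1 1569380_a_at (-0.17) were among these. A called difference had the opposite sign to the main probe set for ATF6 226941_at only, at -0.21 (adjusted p = 0.00422). Over all genes 22.3% had a response called higher in MDA-MB-231 and 23.6% one called lower, 45.8% in either direction. XBP1 and SEL1L were the 2 genes without a call. The largest difference, 0.82 for ERN1, ranked 1059 of 19775 from the most positive.

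On vehicle the main probe sets of the 3 sensors were not called different between the lines, and those of the other 6 genes were. ERN1 differed by 0.068 between MDA-MB-231 and MCF10A on vehicle (95% confidence interval -0.069 to 0.204), ATF6 by 0.015 (-0.063 to 0.093) and EIF2AK3 by -0.075 (adjusted p = 0.142), and none was called. The call of 2 sensors depended on the setting. Other ATF6 probe sets were lower in MDA-MB-231, 226941_at by a change of -0.355 (adjusted p = 4.65e-07) and 231927_at of -0.37, and EIF2AK3 was called lower when the actin ratio was added to the fit (-0.105, adjusted p = 0.0499) and with array weights (-0.097, adjusted p = 0.0444). HERPUD1 was higher in MDA-MB-231 by 0.42, SEL1L by 0.47 and DERL2 by 0.52. XBP1 was lower there by a change of -0.65, EDEM1 of -0.67 and DERL1 of -0.91. The counts were thus 3 higher and 3 lower of 9, beside 29.2% and 26.8% of all genes. Of the 15 other probe sets 6 had the opposite sign to the main one, 4 of them called.

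With 2DG 4 genes were higher in MDA-MB-231 than in MCF10A, namely ERN1 by 0.89, SEL1L by 0.53, ATF6 by 0.34 and DERL2 by 0.29. For ATF6 and DERL2 the direction turned on other probe sets, with -0.57 on 226941_at and -0.39 on 231927_at of ATF6 and -1.37 on 226719_at of DERL2, all called lower. With the mean of all probe sets ATF6 was at -0.132 and DERL2 at -0.541. XBP1 was lower by a change of -0.615, DERL1 of -0.61 and EIF2AK3 of -0.49. Over all genes 30.7% were higher and 28.8% lower. Dim probe sets were also called the other way for XBP1 (242021_at, 0.33, adjusted p = 0.00325) and SEL1L (202063_s_at, -0.26, adjusted p = 0.00463). In all, 6 of the 15 other probe sets had the opposite sign to the main one, 5 of them called. HERPUD1 and EDEM1, which differed on vehicle, were not called with 2DG, at -0.058 (adjusted p = 0.252) and -0.015 (adjusted p = 0.767). These comparisons and the responses above use the same arrays.

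The order of the group levels fell into several patterns. EIF2AK3, XBP1 and EDEM1 ran upward from MDA-MB-231 vehicle through MCF10A vehicle and MDA-MB-231 2DG to MCF10A 2DG, with overlap between the vehicle groups for EIF2AK3 and between the 2DG groups for EDEM1. ERN1 and SEL1L ran from MCF10A vehicle through MDA-MB-231 vehicle and MCF10A 2DG to MDA-MB-231 2DG, with overlap between the vehicle groups for ERN1. ATF6 had 1 group apart, MDA-MB-231 2DG, above 3 that overlap, and HERPUD1 had the overlapping 2DG groups above MDA-MB-231 vehicle and then MCF10A vehicle. DERL1 was ordered by line first, with both MCF10A groups above both MDA-MB-231 groups, and DERL2 had both MDA-MB-231 groups above both MCF10A groups with overlap in the middle. Over the 36 pairs of genes, Pearson's r across the 16 arrays ran from -0.336 (DERL1 and DERL2) to 0.976 (XBP1 and EIF2AK3), with a median of 0.706. The arrays fall into 4 groups, so these values describe mostly the group means.

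The gene with the most similar profile over the 16 arrays was found for each of the 9. It was EIF2A for XBP1 (r = 0.998), OTUD1 for SEL1L (r = 0.997), ZFYVE1 for HERPUD1 (r = 0.997), SGPL1 for EIF2AK3 (r = 0.996) and DCAF10 for ERN1 (r = 0.996). For DERL1 it was KIAA1671 (r = 0.995), for DERL2 NGLY1 (r = 0.991), for EDEM1 OSMR (r = 0.99) and for ATF6 RIOK2 (r = 0.981). NGLY1 encodes the enzyme that strips sugar chains from proteins leaving the ER, and it stands in the extraction list below. These are descriptions over 4 groups that share arrays.

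The 15 other probe sets of the genes disagreed with the main ones more often than in ATF6 alone. In MDA-MB-231 4 were called higher and 4 lower with 2DG, and 7 were not called. In MCF10A 4 were higher, 3 lower and 8 not called. Counted over single probe sets of all genes, 24.5% were higher and 24.0% lower in MDA-MB-231 and 26.6% higher and 24.4% lower in MCF10A. Called falls against a rise of the main probe set came in MDA-MB-231 from 226941_at and 231927_at of ATF6, 226719_at of DERL2 and 235745_at of ERN1 (-0.15, adjusted p = 0.0448). The last, which has a mean of 7.42 against 8.72 for the main ERN1 probe set, read 6.82, 6.96, 6.91 and 6.98 in MCF10A with 2DG, against 7.74, 7.51, 7.51 and 7.54 on vehicle, a fall of 0.66 (adjusted p = 4.25e-08).

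**Figure D3:**
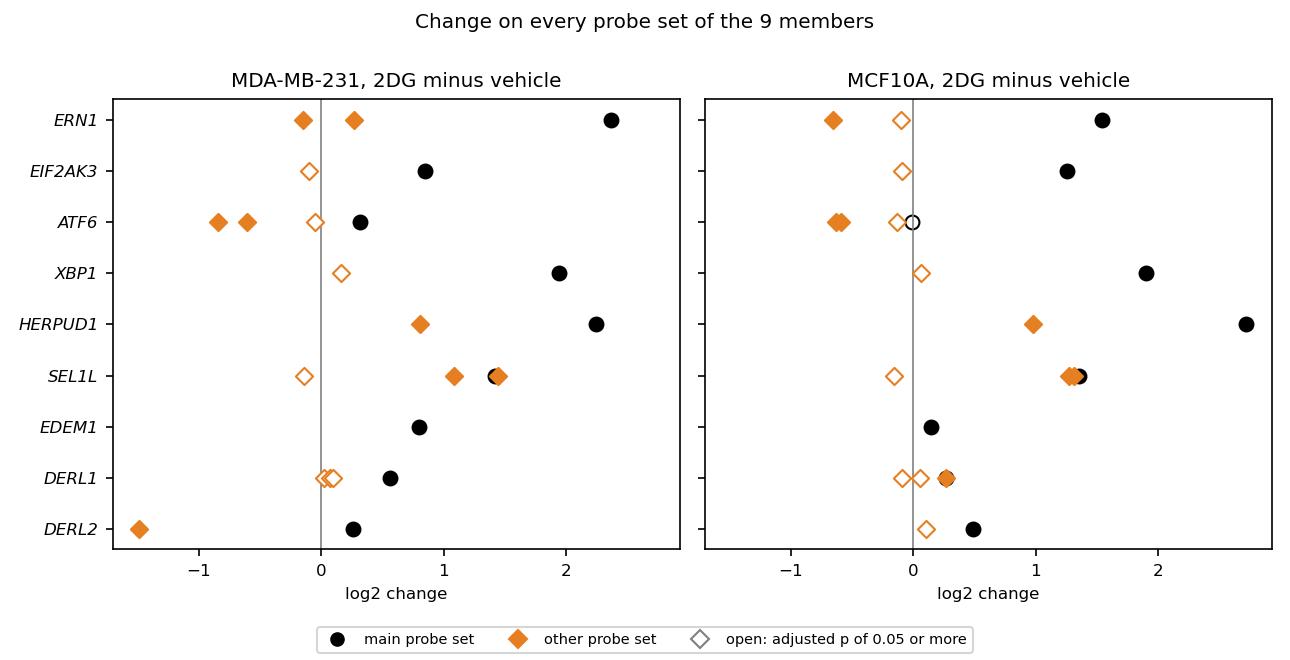
Log2 change with 2DG against vehicle for each of the 24 probe sets of the 9 genes, MDA-MB-231 in the left panel and MCF10A in the right; circles are main probe sets, diamonds the others, and open symbols were not called. Circles lie right of 0 except ATF6 in MCF10A, and the ATF6 probe sets 226941_at and 231927_at lie left of 0 in both lines.

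The other genes of these pathways were followed in lists, again with the brightest probe set of each gene. The genes listed as downstream of PERK and ATF4 rose together, and whether PERK caused this was not tested. All 7 (ATF4, DDIT3, ATF3, TRIB3, CHAC1, ASNS and SESN2) were higher in both lines, beside 25.5% of all genes in MDA-MB-231 and 29.0% in MCF10A, with a median of 1.895 in MDA-MB-231 and 2.31 in MCF10A. ATF3, a stress-induced transcription factor, rose by 2.88 in MDA-MB-231 and by 3.70 in MCF10A. DDIT3, which encodes the transcription factor CHOP, rose by 1.625 in MDA-MB-231 and by 3.10 in MCF10A, and CHAC1, which breaks down glutathione, by 2.61 in MDA-MB-231 and by 2.375 in MCF10A. By the test of the difference, ATF3, DDIT3 and ATF4 rose more in MCF10A and ASNS more in MDA-MB-231, and the other 3 were not called. Without shared probe sets 5 of 6 were higher in MDA-MB-231 and 4 of 6 in MCF10A, and none was lower.

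Of 15 measured XBP1 target and translocon genes, 12 were higher and 2 lower in MDA-MB-231 and 10 higher and 2 lower in MCF10A, with medians of 0.302 and 0.30. Over all genes 25.5% were higher and 25.4% lower in MDA-MB-231, and 29.0% higher and 25.2% lower in MCF10A. DNAJB9, an ER co-chaperone and a known XBP1 target, rose by 2.93 in MDA-MB-231 and by 2.50 in MCF10A. SEC24D, a coat protein of vesicles leaving the ER, rose by 0.80 in MDA-MB-231 and by 0.985 in MCF10A. SPCS3, a subunit of the signal peptidase, fell by 1.85 in MDA-MB-231 and by 0.48 in MCF10A. The count of rises depended on probe sets shared between transcripts. Without them 6 of 13 were higher and 6 lower in MDA-MB-231, and 6 were higher and 3 lower in MCF10A.

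The partners of the sensors moved both ways. Of 19 measured, 7 were higher and 10 lower in MDA-MB-231 (median -0.105) and 11 higher and 6 lower in MCF10A (median 0.19), beside 25.5% higher and 25.4% lower over all genes in MDA-MB-231 and 29.0% and 25.2% in MCF10A. In MCF10A 7 of 18 were higher without shared probe sets. DNAJC3, an ER co-chaperone also known as an inhibitor of eIF2α kinases, rose by 1.82 in MDA-MB-231 and by 0.96 in MCF10A. PPP1R15A, the subunit that directs a phosphatase to eIF2α, rose by 1.52 in MDA-MB-231 and by 0.80 in MCF10A. NFYB, a subunit of the factor NF-Y that binds the CCAAT part of the ER stress element, fell by 1.52 in MDA-MB-231 and rose by 0.14 in MCF10A. MBTPS2, the second Golgi protease that releases ATF6, was chosen after its values were seen and fell by 1.48 in MDA-MB-231 and by 0.72 in MCF10A.

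Of the 7 lectins and mannosidases of ER-associated degradation, 3 were higher and 2 lower in MDA-MB-231 (median 0.092) and 5 higher and 1 lower in MCF10A (median 0.272). In all, 25.5% of genes were higher and 25.4% lower in MDA-MB-231, and 29.0% and 25.2% in MCF10A. Leaving out shared probe sets gave 1 of 5 higher in MDA-MB-231 and 0 lower in MCF10A. With the mean of all probe sets 0 were lower in MDA-MB-231 and 2 in MCF10A. EDEM3, a relative of EDEM1, rose by 0.67 in MDA-MB-231 and fell by 0.19 in MCF10A. OS9, a lectin that hands glycoproteins to SEL1L, rose by 0.302 in MDA-MB-231 and by 0.855 in MCF10A. MAN1B1, a mannosidase, changed by -0.13 in MDA-MB-231 without a call and rose by 0.41 in MCF10A. UGGT2, of the glucosyltransferase family that returns glycoproteins to folding, fell by 0.555 in MDA-MB-231 and was not called in MCF10A.

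Among 17 measured ligases, E2 enzymes and their cofactors, 12 were higher and 3 lower in MDA-MB-231 (median 0.34) and 10 higher and 3 lower in MCF10A (median 0.41), against 25.5% higher and 25.4% lower over all genes in MDA-MB-231 and 29.0% and 25.2% in MCF10A. RNF103, an ER ubiquitin ligase, rose by 1.095 in MDA-MB-231 and by 1.225 in MCF10A. UBE2K, an E2 enzyme, rose by 0.84 in MDA-MB-231 and had a change of 0.018 in MCF10A without a call. TMUB2, a membrane protein with a ubiquitin-like domain, rose by 0.36 in MDA-MB-231 and by 1.19 in MCF10A. Without shared probe sets 5 of 13 were higher and 5 lower in MDA-MB-231, and 6 were higher and 4 lower in MCF10A.

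The 22 measured genes of retrotranslocation and extraction had 10 higher and 9 lower in MDA-MB-231 (median 0.028) and 10 higher and 8 lower in MCF10A (median 0.075), medians close to those of all genes. The shares over all genes were 25.5% higher and 25.4% lower in MDA-MB-231 and 29.0% and 25.2% in MCF10A. Without shared probe sets 5 of 17 were higher in MDA-MB-231 and 6 of 17 in MCF10A. YOD1, a deubiquitinase that works with the ATPase VCP, rose by 1.41 in MDA-MB-231 and by 0.42 in MCF10A. SELENOK, a selenoprotein that binds the derlins, rose by 0.93 in MDA-MB-231 and by 0.205 in MCF10A. SVIP, a small inhibitor of this degradation, was not called in MDA-MB-231 and fell by 1.5 in MCF10A. UBXN8, which tethers VCP to the ER, fell by 0.90 in MDA-MB-231 and by 1.28 in MCF10A. VCP itself, chosen after its values were seen, rose by 0.11 in MDA-MB-231 (adjusted p = 0.0366) and fell by 0.67 in MCF10A.

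Transcripts reported as substrates of IRE1-dependent decay did not move one way. Of 6 measured, 1 was higher and 2 lower in MDA-MB-231 (median 0.066) and 3 higher and 2 lower in MCF10A (median 0.144), where all genes had 25.5% higher and 25.4% lower in MDA-MB-231 and 29.0% and 25.2% in MCF10A. Some of these genes were dim, with group means under 7.18, the median of all values of the main probe sets. PDGFRB averaged 6.71 to 6.79 over the groups. In MDA-MB-231 SPARC averaged 5.55 on vehicle and 5.70 with 2DG, and SCARA3 6.88 and 6.95. A fall from such a level is hard to see, and whether decay took place was not tested. COL6A1, a collagen chain, rose by 0.65 in MDA-MB-231 and by 0.53 in MCF10A. HGSNAT, a lysosomal acetyltransferase, fell by 0.22 in MDA-MB-231 and rose by 0.83 in MCF10A. BLOC1S1, a commonly used marker of this decay, fell by 0.15 in MDA-MB-231 (adjusted p = 0.0261) and rose by 0.262 in MCF10A (adjusted p = 0.000352), and was named after its values were seen. Counts in this list of 6 changed when single arrays were left out, to 2 higher without MDA-MB-231 vehicle A, to 1 lower without MDA-MB-231 vehicle C, 2DG A or 2DG C, and to 1 lower in MCF10A without vehicle A, vehicle C or 2DG D.

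**Figure D4:**
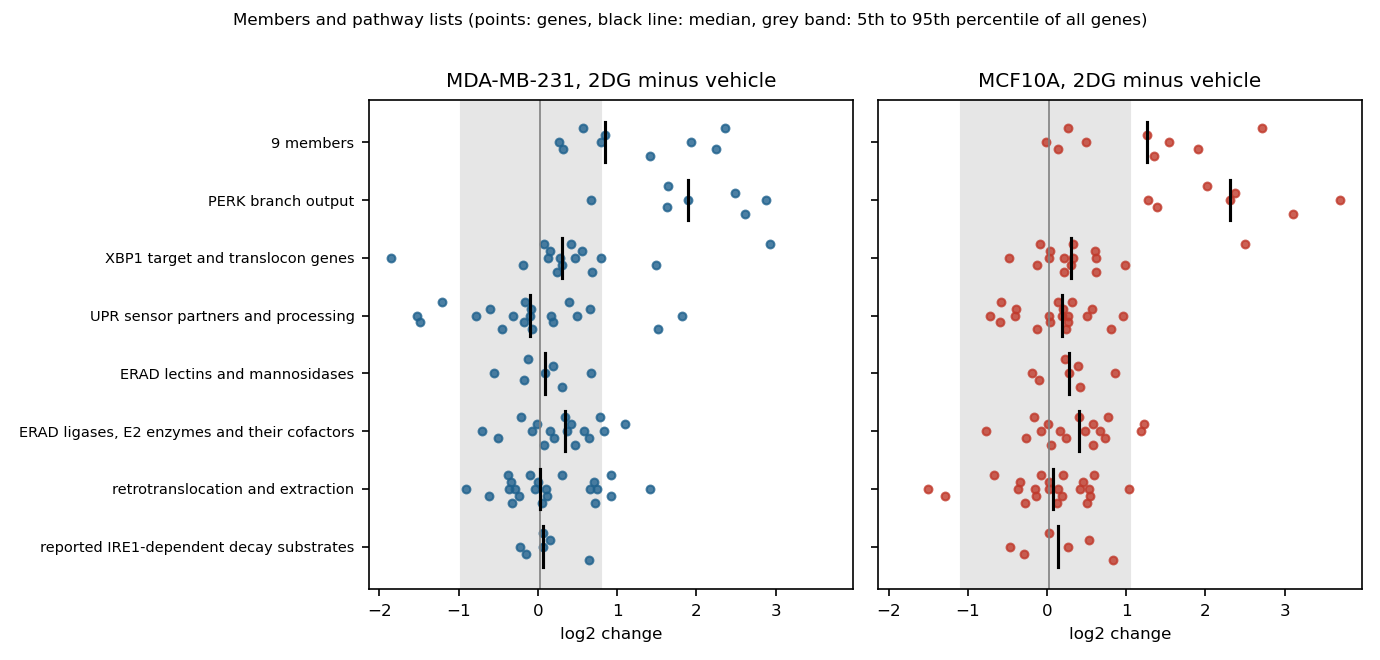
Log2 change with 2DG against vehicle of each measured gene (points) of the 9 genes described and of 7 pathway lists, MDA-MB-231 in the left panel and MCF10A in the right; black bars are list medians and the grey band spans the 5th to 95th percentile of all genes. All points of the list named for the PERK branch lie above 0 in both lines, and each of the other pathway lists has points on both sides of 0 in both lines.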

How the data were processed

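The authors deposited log2 values, 1 per probe set and array, made with RMA (background correction, quantile normalization and summary of probes), per the submitters' processing notes. The version of RMA is not given in the sources used here. Per the labels' protocols the RNA was labelled from its 3' end with an IVT kit, so values depend on RNA integrity. The table held 54675 probe sets, with values from 2.38 to 15.15 and no call of signal over background. RMA compresses small signals, so changes of dim probe sets are understated, and the number of arrays limits the precision.

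Gene names came from GEO's annotation of the platform: 41091 named 1 gene, and 1801 that named several were left out. Of the 41091, 41037 were found in RefSeq GRCh38.p14 by gene number, and no symbol changed. The brightest probe set stood for each of 19775 genes.

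Group means over all 16 arrays were compared by lmFit and eBayes of limma 3.58.1 under R 4.3.3 (12 residual degrees of freedom), with Benjamini-Hochberg adjustment over all genes. The procedure was tested on simulated data with known changes. Named genes are the members with all probe sets and, per list and line, the 2 called genes with the largest change. Members and lists were chosen with earlier results of these data known. Replicate letters were not treated as pairs in the reported fit. Deviations of same-lettered arrays correlated between -0.099 and 0.088 over 16 pairs, and in 5 of these the same letter had the highest r. Between vehicle and 2DG of MCF10A the values were 0.085, 0.040, 0.071 and 0.088 for A to D. Such values from 4 arrays per group cannot show whether letters pair samples. No label says that a letter marks a shared batch. List genes without a value were not analysed here. Alternatives were another summary over probe sets, no shared or dim probe sets, other centring, array weights, another variance model, the actin ratio, the replicate letter, only the groups compared, and leaving out each array.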

Additional observations from a re-analysis of the deposited data

Results flagged for a closer look

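On the main probe sets the response to 2DG differed between the lines for 7 of the 9 genes by the test of the difference in the fit (limma, adjusted p under 0.05). MDA-MB-231 minus MCF10A was 0.82 for ERN1, 0.65 for EDEM1, 0.33 for ATF6, 0.30 for DERL1, -0.23 for DERL2, -0.41 for EIF2AK3 and -0.48 for HERPUD1. For ATF6 the probe set 226941_at was called the other way. The same test picked out genes named from the pathway lists. The difference was positive for SVIP (1.5), YOD1 (0.99), DNAJC3 (0.86), EDEM3 (0.86), UBE2K (0.82), PPP1R15A (0.72), SELENOK (0.72), DNAJB9 (0.43) and UBXN8 (0.38). It was negative for RNF103 (-0.13), UGGT2 (-0.46), MAN1B1 (-0.54), OS9 (-0.55), ATF3 (-0.82), TMUB2 (-0.82), HGSNAT (-1.05), SPCS3 (-1.37), DDIT3 (-1.48) and NFYB (-1.67). For comparison, 45.8% of all genes had a called difference.

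Single arrays stood apart from the other 3 of their group in 6 of 96 groups of the genes' own probe sets. They were ATF6 203952_at at 9.91 in MDA-MB-231 vehicle A, ATF6 217550_at at 7.61 in MDA-MB-231 vehicle B, HERPUD1 1569380_a_at at 7.01 in MDA-MB-231 2DG D, ATF6 231927_at at 8.39 and DERL2 218333_at at 11.46 in MCF10A 2DG D and A, and ERN1 235745_at at 7.74 in MCF10A vehicle A. Among 88 groups of the named list genes there were 9. MAN1B1 at 9.82 and OS9 at 9.25 were both in MDA-MB-231 vehicle B, the array with the actin ratio of 1.09, and SEC24D at 9.37 and SVIP at 9.93 in MDA-MB-231 2DG A. DNAJB9 at 12.26, EDEM3 at 10.23 and SPCS3 at 11.66 were in MCF10A 2DG D, and HGSNAT at 10.30 and YOD1 at 10.28 in MCF10A vehicle C. The rule sets the gap to the nearest array against the range of the group, so it can pick out steps as small as the rounding of the values. YOD1, at 10.28 against a group mean of 10.2875, is such a case. For normal values that are not rounded, chance picks out about 1 in 20 such groups.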

How the results depend on the processing

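The counts of called genes among the 9 stayed within 1.5 times their reported value in all 240 cases that left out 1 array, and no change of a gene lost its call or became called there (720 cases). The sign turned in changes that were not called: ATF6 in MCF10A (-0.026 to 0.014), ATF6 between the lines on vehicle (-0.0025 to 0.034) and EDEM1 between the lines with 2DG (-0.04 to 0.01). With the replicate block the counts were the same: 9 higher in MDA-MB-231, 8 higher in MCF10A, 4 higher and 3 lower for the difference, 3 and 3 for the lines on vehicle, and 4 and 3 with 2DG. EIF2AK3 became called on vehicle with the actin covariate (-0.105, adjusted p = 0.0499) and with array weights (-0.097, adjusted p = 0.0444). The choice of probe set moved the results, and its cause was not tested. Without shared probe sets, which removes HERPUD1 and SEL1L, 5 of 7 genes were higher in MCF10A and 1 was higher in MDA-MB-231 on vehicle. With the mean of all probe sets, 2 genes were lower in MDA-MB-231, 1 lower in MCF10A, 2 higher for the difference, and 2 higher and 5 lower in MDA-MB-231 with 2DG. ATF6 then turned to -0.296 in MDA-MB-231, -0.177 for the lines on vehicle and -0.132 with 2DG, and DERL2 to -0.614 in MDA-MB-231 and -0.541 for the lines with 2DG.

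Single other probe sets turned the sign as follows. In MDA-MB-231 they gave -0.15 for ERN1, -0.055, -0.84 and -0.605 for ATF6, -0.10 for EIF2AK3, -0.145 for SEL1L and -1.49 for DERL2. In MCF10A they gave -0.10 and -0.66 for ERN1, -0.09 for EIF2AK3, -0.16 for SEL1L and -0.092 for DERL1. For the difference they gave -0.21 and -0.018 for ATF6, -0.19 for SEL1L and -0.24 for DERL1. Between the lines on vehicle they gave 0.235 for XBP1, -0.355 and -0.37 for ATF6, -0.27 for SEL1L, 0.03 for EIF2AK3 and 0.028 for DERL1, and with 2DG 0.33 for XBP1, -0.57 and -0.39 for ATF6, 0.02 for EIF2AK3, -0.26 for SEL1L and -1.37 for DERL2.

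Of the list counts, 24 moved by over 1.5 times under alternatives that kept all arrays, and 256 did not. Without shared probe sets, which tests fewer genes, the higher counts in MDA-MB-231 were 6 (reported 12) for XBP1 targets, 1 (3) for lectins, 5 (12) for ligases and 5 (10) for extraction. The lower counts there were 6 (2) for XBP1 targets, 5 (3) for ligases and 1 (2) for decay substrates. In MCF10A the higher counts were 7 (11) for sensor partners, 4 (7) for the PERK branch, 6 (10) for XBP1 targets, 6 (10) for ligases and 6 (10) for extraction, and 0 (1) lectins were lower. With the mean of all probe sets 5 (3) ligases were lower in each line, and the lower lectins were 0 (2) in MDA-MB-231 and 2 (1) in MCF10A. The MCF10A count was also 2 without dim genes and with arrays centred on their median. Decay substrates had 2 (1) higher in MDA-MB-231 with the mean of all probe sets or the actin covariate, 1 (2) lower there with the covariate or only the groups compared, and 1 (2) lower in MCF10A with the covariate. Signal over background was not given, which limits what dim probe sets show.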
